A study of Mus musculus with 12 samples.

Results

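Genes of 7 families named for the testis or the sperm cell were followed in ribosome-bound RNA from the mouse hypothalamus. They were chosen by symbol: every gene of the table whose symbol begins with Tex, Spata, Tssk, Spag, Prm or Odf followed by a number, or with Catsper, leaving out symbols that end in "os". This took 50 of the 5764 genes of the table, namely 22 Tex, 13 Spata, 4 Tssk, 4 Odf, 4 Catsper, 2 Prm and 1 Spag gene. The rule used names and no measured value, but it was set with earlier results of these data known. Of these 50 genes, 49 had at least a part of a read in some library, and Spata22, a partner of the meiotic recombination machinery, was at 0 in all 12.

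The libraries came from POMCRiboTag mice, in which neurons that express pro-opiomelanocortin (POMC) carry a ribosomal protein with an HA tag; the labels do not describe the driver of the tag beyond the name of the line. Tissue enriched for the arcuate nucleus was cut from the hypothalamus, tagged ribosomes were pulled down with an anti-HA antibody, and the RNA they held was amplified from 0.5 ng. All mice had fasted for 16 h and had spent 1 h in the test room. In the SENS group (6 libraries) a caged food pellet was then put in the home cage for 10 min, so that chow could be seen and smelled but not eaten. In the NEO group (6 libraries) the cage held a wooden object that is not edible. Exposure took place around zeitgeber time 6 h, and mice were housed in pairs or triplets. Strain, age, sex and the number of mice behind a library are not given in the labels, so p-values measure the spread between these libraries, which may be technical. The labelled cell type could not be checked here, because none of 23 listed genes of POMC neurons and other neurons, among them Pomc, Cartpt and Snap25, has a value in the table used.

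Spermatids, the haploid cells that follow meiosis, are reshaped into sperm in an orderly way. Transition proteins and then protamines replace histones in the nucleus, an acrosome forms from the Golgi, and a tail is built around a microtubule axoneme sheathed by outer dense fibres, a fibrous sheath and mitochondria. Testis-specific serine kinases (Tssk) act during this remodelling, and the CatSper calcium channel sits in the tail membrane, where it drives hyperactivated swimming. The names Tex (testis expressed) and Spata (spermatogenesis associated) were given by site of expression. Those 2 families are not related by sequence throughout, and some of their members are expressed outside the germ line. In the adult hypothalamus none of the structures above is built, apart from the motile cilia of ependymal cells, which share axoneme parts such as Spag6 with the sperm tail.

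Values are in CPM, reads rescaled so that every library's values sum to nearly the same total. The table rests on few reads: between 6901 and 18299 per library, with 51054 in the NEO and 78624 in the SENS libraries. A single read was therefore worth between 54.6 and 145 CPM. A count of 0 allows up to 3 reads, which is between 164 and 435 CPM in a library, 58.8 CPM over the NEO libraries pooled and 38.2 CPM over the SENS libraries pooled. Such limits cover counting error only. The 50 genes together held 1534.83 reads, of which 468.33 were in NEO and 1066.5 in SENS libraries, and 27 of them reached 10 reads over all libraries. The median was 13.5 reads per gene, against 9 over all genes of the table. Fractions of a read occurred in 4 of the 50 genes (Catspere1, Catsperg1, Catsperg2 and Spag6), and near-identical copies can split reads there, so their levels are uncertain.

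A pair of SENS libraries stood apart in these genes. SENS 1 was above 0 for 36 of the 50 genes, whereas the other 11 libraries were above 0 for between 15 and 22. SENS 6 was above 0 for 18, but carried 361 reads of these genes, the most of any library. SENS 1 did not stand apart in the number of genes above 0 over the whole table, with 2175 where the other libraries ranged from 1419 to 2402. It did in the number of genes that no other library held, with 307 where the others had between 38 and 132.

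Protamines, which pack sperm DNA, gave the most uneven values. Prm2 lay at 7541 CPM in SENS 1, from 65 reads, and at 180 CPM in NEO 2, from 2 reads. It was at 0 in the other 10 libraries. Its log2 fold change of 0.90 (SE 1.98) became -1.25 without SENS 1. Prm3, which sits in the same gene cluster, had 3 reads, all in SENS 1 (348 CPM). In the mouse genome build GRCm38 the cluster lies on chromosome 16, with Prm3 at chr16:10790508-10790914 and Prm2 at chr16:10791377-10792105. Next to them, at chr16:10787935-10788655, lies Tnp2, a transition protein gene outside the 7 families, whose 35 reads were all in SENS 1 as well. The sequences before the Prm2 and Prm3 starts are shown because these neighbours had their highest values in the same library. The sequence before Spata48, whose reads were spread over 11 libraries, is set beside them. Each is the 250 bases before the annotated start, from RefSeq on GRCm38.p6 and on the strand of the gene, and capitals mark matches to TATAAA or CCAAT on either strand. Prm2 is chr16:10792106-10792355 on the minus strand, Prm3 is chr16:10790915-10791164 on the minus strand and Spata48 is chr11:11463494-11463743 on the plus strand.
Prm2: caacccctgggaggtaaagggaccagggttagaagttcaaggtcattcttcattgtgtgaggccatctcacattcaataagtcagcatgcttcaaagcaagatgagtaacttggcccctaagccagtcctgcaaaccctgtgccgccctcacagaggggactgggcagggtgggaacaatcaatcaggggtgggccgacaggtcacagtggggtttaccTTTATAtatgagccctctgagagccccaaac
Prm3: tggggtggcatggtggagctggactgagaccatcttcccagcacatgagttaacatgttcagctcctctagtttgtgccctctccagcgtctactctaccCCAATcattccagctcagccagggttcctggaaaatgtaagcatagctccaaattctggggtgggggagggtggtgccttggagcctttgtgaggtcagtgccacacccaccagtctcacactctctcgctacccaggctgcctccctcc
Spata48: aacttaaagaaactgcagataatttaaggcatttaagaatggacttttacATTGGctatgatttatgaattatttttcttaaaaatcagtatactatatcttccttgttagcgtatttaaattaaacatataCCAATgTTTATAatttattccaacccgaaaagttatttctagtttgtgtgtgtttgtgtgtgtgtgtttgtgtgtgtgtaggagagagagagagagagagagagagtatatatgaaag

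RefSeq held such a promoter for 42 of the 50 genes. TATAAA was found on either strand in 6 of these 42 (14.3%), Prm2 and Spata48 among them, and in 14.3% of 27025 mouse genes. CCAAT was found in 14 of 42 (33.3%), Prm3 and Spata48 among them, and in 37.5% of all genes. TGACGTCA, the full site of the cAMP response element, was found in 0 of 42 and in 1.77% of all genes. No matches overlap in the 3 sequences shown, and a match or its absence describes these windows only.

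**Figure D1:**
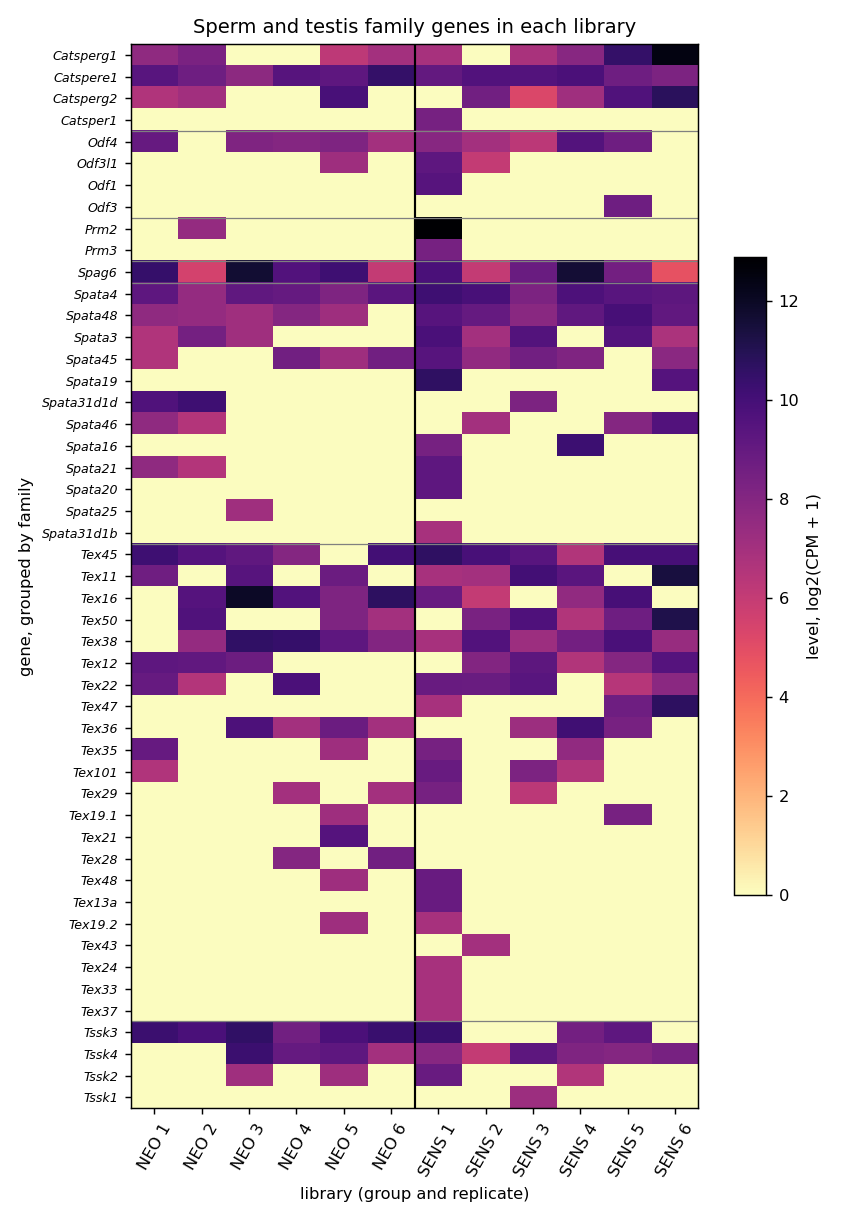
Level of each of the 49 genes with reads (rows, grouped by family) in each of the 12 libraries (columns), as log2(CPM + 1) on a colour scale from 0 (pale) to the highest level (dark). Prm2 in SENS 1 is the darkest cell at 7541 CPM, SENS 1 has the most filled cells (36), and 3 rows (Catspere1, Spata4 and Spag6) are filled in every library.

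Over the whole of the 7 families no gene passed the comparison of SENS with NEO. With limma on log2(CPM + 1), 0 of 49 tested members had a Benjamini-Hochberg adjusted p under 0.05, and the background was 0% (0 of 5141 genes). The smallest limma adjusted p was 0.745 among the members and 0.728 over all genes. At an unadjusted limma p under 0.05, 1 member was higher in SENS (Tex47; 2.04% of 49, background 1.83%) and 1 was lower (Tssk3; 2.04%, background 1.85%). An exact permutation test of the difference in mean CPM over all 924 regroupings of the libraries, whose smallest possible p is 0.00216, gave 2 members at an unadjusted p under 0.05 (Spata48 and Tssk3; 4.08%, background 2.51%). After adjustment over all genes it gave 0 members, with a background of 0%. There were 0 members whose SENS and NEO values did not overlap, where the background was 0.0195% for genes higher in SENS and 0.0778% for genes lower. In direction, 37 of 49 members (75.5%) had a log2 fold change above 0, where the background was 57%, and without SENS 1 it was 24 of 40 (60%). The median log2 fold change was 1.17 over the members and 0.39 over all genes tested. This scale is log2(CPM + 1), on which a gene read in a single library already scores above 1. With genes at 0 in one group set to their bound from pooled reads, the median was 0.50 over 40 members and 0.07 over 4052 genes. The remaining 9 members and 1089 genes were at 0 in 1 group and at or under the limit of 3 reads in the other.

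Detection was higher in SENS, and SENS 1 weighed most on the difference. The numbers of genes above 0 were 19, 18, 16, 15, 22 and 15 in NEO 1 to 6, and 36, 19, 21, 21, 21 and 18 in SENS 1 to 6. The means were 17.5 ± 2.74 (SD, n = 6) and 22.7 ± 6.65 (SD, n = 6), a difference of 5.17 genes. Without SENS 1 the SENS mean was 20.0 ± 1.41 (SD, n = 5) and the difference 2.5 genes, smaller than the NEO SD. SENS libraries also held more reads (13104 ± 3466, SD, n = 6) than NEO libraries (8509 ± 1749, SD, n = 6), although SENS 1, with 8619, held fewer than the other SENS libraries. At an equal 6000 reads per library, the expected number of genes above 0 was 15.5 ± 2.53 (SD, n = 6) in NEO and 19.5 ± 6.82 (SD, n = 6) in SENS. SENS 1 then had 32.9, and the next highest library, NEO 5, had 19.9.

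Most of the genes that SENS 1 held had few reads there. Of its 36 genes, 29 had between 1 and 6 reads, 4 had more than 10, and the median was 4. There were 9 members (18.4%) seen in SENS 1 and nowhere else, where the background was 5.97% of genes. These were Catsper1, Odf1, Prm3, Spata20, Spata31d1b, Tex13a, Tex24, Tex33 and Tex37. Of the 49 members, 17 (34.7%) had their highest read number in SENS 1, against a background of 10.1%. SENS 6 was the highest library for 8 members (16.3%, background 13.9%). Its reads were concentrated here, as they were over the whole table. Of its 18 genes, 10 had more than 10 reads, and the median was 12. A set of 5 genes (Catsperg1, Tex11, Tex50, Catsperg2 and Tex47) held 71.2% of its reads of the 7 families.

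**Figure D2:**
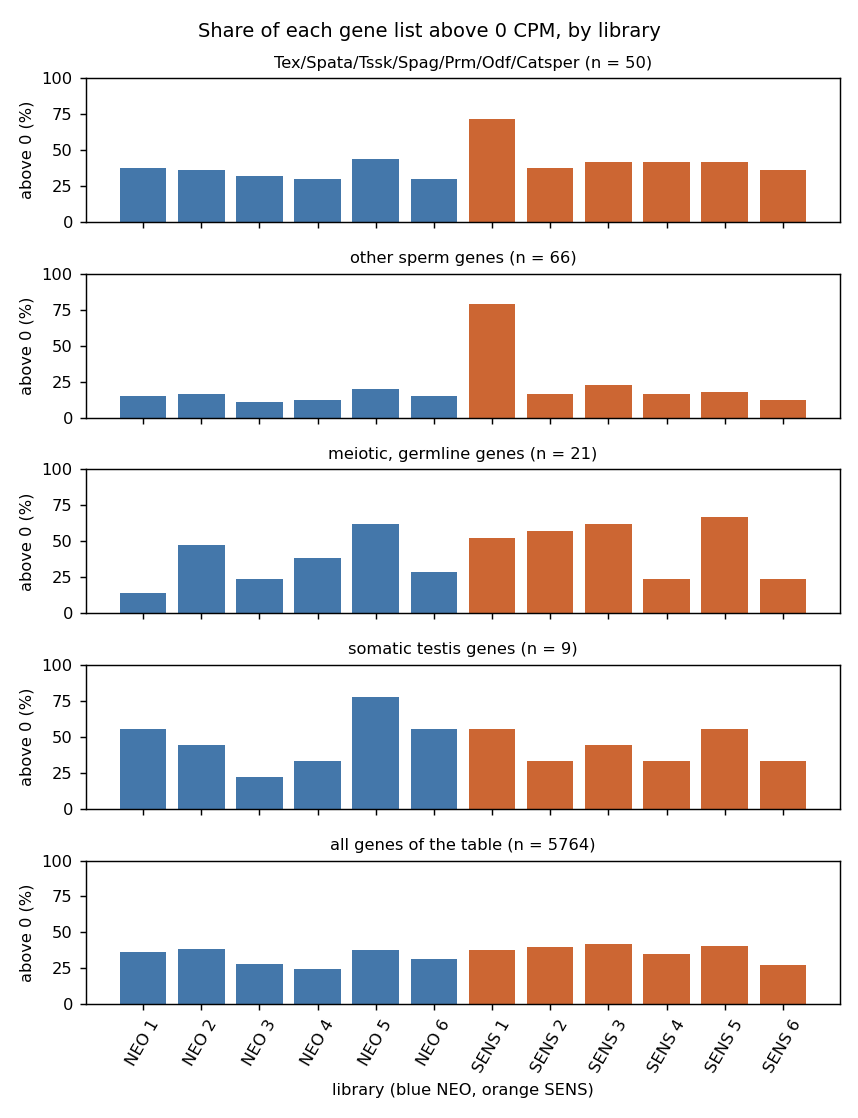
Percentage of the genes of each list that were above 0 CPM (vertical axes, 0 to 100%) in each library (blue NEO, orange SENS). In the upper panel SENS 1 lies at 72% of the 50 genes and the other libraries between 30% and 44%, while in the lowest panel all genes of the table give no such gap.

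The CatSper genes are 1 pore subunit and 3 auxiliary subunits in this table, and they differed in spread more than in direction. Catsper1, a pore-forming subunit without which sperm cannot hyperactivate, had 3 reads in SENS 1 and 0 in the other 11 libraries, at the limit that a count of 0 allows. Catspere1, the epsilon auxiliary subunit, was above 0 in all 12 libraries. Its lowest, median and highest values were 210, 624 and 1420 CPM in NEO and 301, 636 and 885 CPM in SENS. The groups overlapped throughout, with means of 663 ± 413 CPM (SD, n = 6) and 607 ± 229 CPM (SD, n = 6) and a log2 fold change of 0.01 (SE 0.83). Catsperg1, one of the mouse genes for the gamma subunit (chr7:29181532-29215589), ranged from 0 through a median of 101 to 314 CPM in NEO, and from 0 through 174 to 5683 CPM in SENS. That highest value was SENS 6, whose 104 reads were 77.9% of all Catsperg1 reads. The ratio of the means was 10.7 with SENS 6 and 3.23 without it, and the log2 fold change was 2.57 (SE 2.23). SENS 5, at 1453 CPM, carried most of what was left. SENS 1 to SENS 4 were at 116, 0, 112 and 233 CPM, within the NEO range. Catsperg2, the other gamma gene (chr7:29697217-29727049), was also highest in SENS 6, at 1803 CPM, and its second highest value was 942 CPM in NEO 5. Its means were 196 ± 370 CPM (SD, n = 6) in NEO and 526 ± 691 CPM (SD, n = 6) in SENS. Both gamma genes had fractional reads, so reads shared between the 2 copies cannot be told apart.

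Of the genes of tail structures, 3 of 4 Odf genes had a log2 fold change above 0 and Spag6 had one below. Spag6, a protein of the central pair of the axoneme that is needed for motile cilia as well as flagella, was above 0 in all 12 libraries. Its lowest, median and highest values were 44.9, 960 and 3216 CPM in NEO and 27.3, 412 and 3073 CPM in SENS. NEO 3 and SENS 4 were the highest libraries of their groups, and the log2 fold change of -0.62 (SE 1.11) became 0.07 without SENS 6. Odf4, a protein of the sperm tail, was above 0 in 5 of 6 NEO and 5 of 6 SENS libraries, with means of 240 ± 165 CPM (SD, n = 6) and 266 ± 275 CPM (SD, n = 6). Odf1, a main protein of the outer dense fibres, had 6 reads, all in SENS 1 (696 CPM). Its pooled SENS level was 1.30 times the pooled NEO limit. Such a multiple allows for counting error in the group at 0 only, not in the group with reads. Odf3 had 5 reads, all in SENS 5 (415 CPM), and its pooled SENS level was 1.08 times that limit. Odf3l1 had 5 of its 7 reads in SENS 1, 1 in SENS 2 and 1 in NEO 5.

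The kinases Tssk1 to Tssk4, made in spermatids, included the gene with the lowest unadjusted limma p of the 49. Tssk3 (chr4:129489008-129491730) was above 0 in all 6 NEO libraries, at a lowest, median and highest level of 380, 1084 and 1538 CPM. In SENS it was at 0 in replicates 2, 3 and 6, at 372 CPM in SENS 4, 581 CPM in SENS 5 and 1276 CPM in SENS 1. The groups overlapped through SENS 1 and SENS 5, and SENS 1 lay within the upper NEO values. The means were 1041 ± 412 CPM (SD, n = 6) and 372 ± 505 CPM (SD, n = 6), from 53 NEO and 22 SENS reads. With limma the log2 fold change was -5.22 (SE 1.70), with an unadjusted p of 0.0027 and an adjusted p of 0.745. The exact permutation test of the means gave an unadjusted p of 0.0368 and an adjusted p of 1. Without SENS 1 the log2 fold change was -6.35, so in Tssk3 that library lay on the NEO side. Tssk4 had the opposite sign in its mean and its log2 fold change: 412 ± 484 CPM (SD, n = 6) in NEO and 292 ± 175 CPM (SD, n = 6) in SENS, with a log2 fold change of 2.01 (SE 1.84). It was at 0 in NEO 1 and NEO 2 and highest in NEO 3 (1259 CPM). In all, 6 members had such a change of sign between the scales. Tssk1 and Tssk2 are neighbours on chromosome 16, 2984 bases apart, and had few reads. Tssk1 had 2 reads in SENS 3 alone, and Tssk2 had 4 in SENS 1, 1 in SENS 4, 1 in NEO 3 and 1 in NEO 5.

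Of the Spata genes with reads in most libraries, Spata48, Spata3, Spata4 and Spata45 had higher means in SENS. This held with or without the SENS library that had the most reads of the gene. For Spata45 the ratio of the means was 1.74, and 1.27 without SENS 1. Spata48 (chr11:11463744-11515192), which later naming lists as a sperm microtubule inner protein, had a lowest, median and highest level of 0, 162 and 254 CPM in NEO and 225, 553 and 997 CPM in SENS. Only SENS 3, at 225 CPM, lay within the NEO range, below NEO 4 at 254 CPM. The means were 152 ± 85.2 CPM (SD, n = 6) and 589 ± 252 CPM (SD, n = 6), a ratio of 3.87 from 8 NEO and 45 SENS reads. Without its highest library, SENS 5, the ratio was 3.34. The exact permutation test gave an unadjusted p of 0.00433 and an adjusted p of 1. With limma the log2 fold change was 2.84 (SE 1.44), with an unadjusted p of 0.0519 and an adjusted p of 0.745. It was 2.76 without SENS 1 and 2.83 without SENS 6.

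Spata3 had 6 NEO reads, 4 of them in NEO 2, and 31 SENS reads, of which SENS 1, SENS 3 and SENS 5 held 8, 10 and 9. Its lowest, median and highest values were 0, 48.9 and 359 CPM in NEO and 0, 438 and 928 CPM in SENS, so the groups overlapped. The means were 99.4 ± 141 CPM (SD, n = 6) and 444 ± 407 CPM (SD, n = 6), a ratio of 4.46. It was 3.85 without SENS 3, which had the most reads. The highest level in CPM was in SENS 1, and the log2 fold change of 3.42 (SE 2.51) was 2.87 without that library. The exact permutation p of Spata3 was 0.0952 unadjusted and 1 adjusted. Spata4 was above 0 in all 12 libraries, at 180, 533 and 646 CPM (lowest, median and highest) in NEO and 300, 751 and 1160 CPM in SENS. SENS 3 and SENS 6 lay within the NEO range, and the means were 461 ± 184 CPM (SD, n = 6) and 754 ± 301 CPM (SD, n = 6). The exact permutation p of Spata4 was 0.0628 unadjusted and 1 adjusted. SENS 1 was its highest library, and the log2 fold change of 0.72 (SE 0.84) was 0.57 without it. Spata19, a protein of the mitochondrial sheath of the sperm tail, was at 0 in every NEO library and had 27 reads in SENS, 14 in SENS 1 and 13 in SENS 6. Its pooled SENS level was 5.84 times the pooled NEO limit, and no SENS library other than those 2 had a read. Spata16, a Golgi protein needed for the acrosome, was at 0 in all NEO libraries, with 13 reads in SENS 4 and 3 in SENS 1. Its pooled SENS level was 3.46 times the pooled NEO limit. Spata20 had 5 reads in SENS 1 only, a pooled SENS level of 1.08 times that limit. Spata25 had 1 read, in NEO 3. Spata31d1d went the other way, with 21 NEO reads, in NEO 1 and NEO 2, and 4 SENS reads, in SENS 3.

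**Figure D3:**
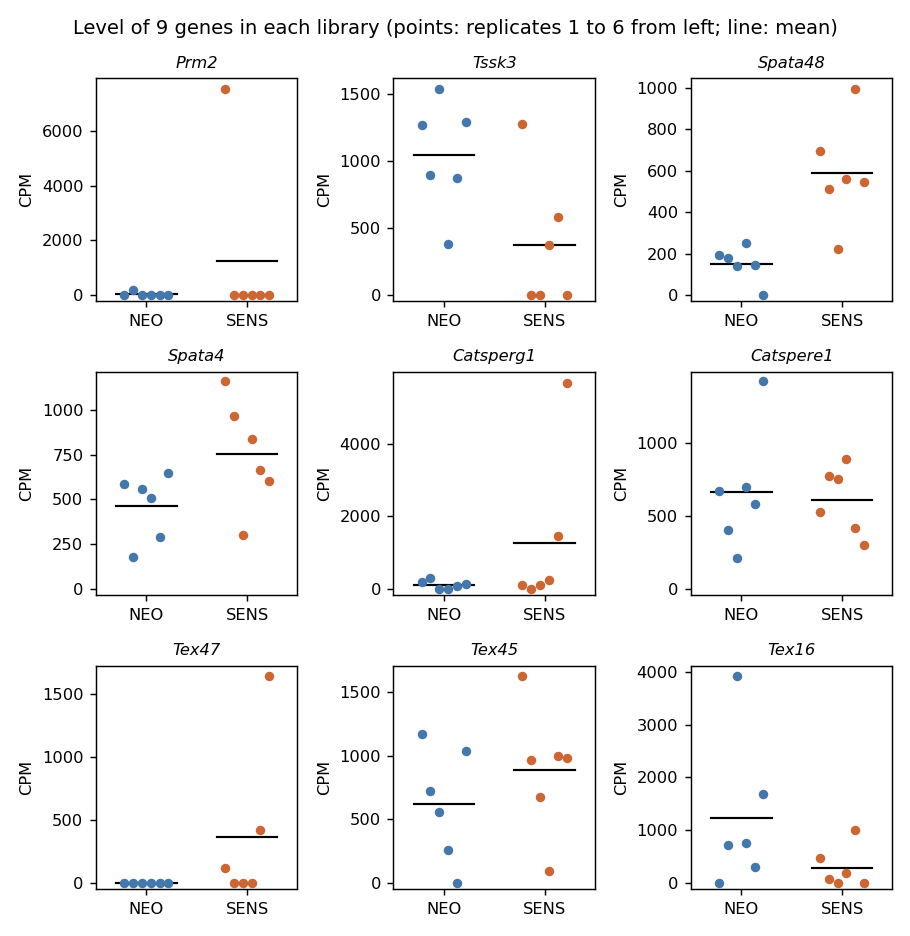
Level in CPM (vertical axes, linear, scaled to each gene) of 9 genes in the 6 NEO (blue) and 6 SENS (orange) libraries, with points for replicates 1 to 6 from left to right and lines for group means. Single libraries carry the SENS mean of Prm2 (SENS 1, 7541 CPM) and Catsperg1 (SENS 6, 5683 CPM), whereas 5 of 6 SENS points of Spata48 lie above all NEO points.

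Among the Tex genes, those known from meiosis were seen in both groups. Tex11, an X-linked gene needed for chromosome synapsis and recombination, had a lowest, median and highest level of 0, 195 and 699 CPM in NEO and 0, 390 and 2678 CPM in SENS. SENS 6 held 49 of its 73 SENS reads, and without that library the ratio of the means was 1.53 where it had been 3.03. Tex12, a part of the central element of the synaptonemal complex, lay at 257 ± 287 CPM (SD, n = 6) in NEO and 318 ± 281 CPM (SD, n = 6) in SENS. SENS 6 held 13 of its 29 SENS reads, and the ratio of its means was 1.24 with that library and 0.93 without it. Tex101, a surface protein of germ cells that acts in sperm maturation, had 1 NEO read and 9 SENS reads, 4 of them in SENS 1 and 4 in SENS 3. Tex19.1 and Tex19.2, a pair of similar genes on chromosome 11 linked to the control of retrotransposons, had 5 and 2 reads in all.

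Other Tex genes with more reads differed in which library led. Tex45 was above 0 in 5 of 6 NEO and 6 of 6 SENS libraries, at 0, 639 and 1173 CPM (lowest, median and highest) in NEO and 93.1, 973 and 1624 CPM in SENS. Its means of 623 ± 449 CPM (SD, n = 6) and 889 ± 499 CPM (SD, n = 6) differed by less than either SD. SENS 1 was its highest library, without which its log2 fold change was 1.35. Tex16, an X-linked gene, was lower in SENS, with 1227 ± 1435 CPM (SD, n = 6) in NEO and 285 ± 390 CPM (SD, n = 6) in SENS. NEO 3 held 28 of its 57 NEO reads (3915 CPM), the groups overlapped, and the limma adjusted p was 0.745. Tex47 had 0 reads in NEO and 36 in SENS, with 30 in SENS 6, 5 in SENS 5 and 1 in SENS 1. Its pooled SENS level was 7.79 times the pooled NEO limit. The log2 fold change was 4.38 (SE 2.18), with an unadjusted limma p of 0.0472 and an adjusted p of 0.745. The other 3 SENS libraries of Tex47 were at 0, as were all NEO libraries. Tex50 was highest in SENS 6 too, at 2241 CPM. Tex21 had 5 reads in NEO 5 only, and Tex28 had 2 reads in NEO 4 and 3 in NEO 6 and none in SENS. For each of these 2 genes the pooled NEO level was 2.57 times the pooled SENS limit.

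How far reads lay in a single library was counted against the whole table. Of the 49 genes, 30 (61.2%) had more than 50% of their reads in a single library, where the background was 47.7%. A single library held all reads of 14 (28.6%, background 23.7%). The genes with 0 reads in NEO numbered 15 (30.6%, background 22.7%), and those with 0 reads in SENS numbered 3 (6.12%, background 10.3%). The 3 were Spata25, Tex21 and Tex28. The shares among the 49 genes were above the background for NEO zeros and below it for SENS zeros, and 9 of the 15 NEO zeros were the genes that only SENS 1 held.

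The summed level of the 50 genes showed the weight of each library most directly. In NEO 1 to 6 it was 9462, 7092, 15592, 7546, 8694 and 7941 CPM. In SENS 1 to 6 it was 25466, 6479, 8622, 11593, 12084 and 19728 CPM. NEO 3 was high within its group, with Tex16 and Spag6 as its highest genes, and SENS 2 was the lowest of all 12. The means were 9388 ± 3154 CPM (SD, n = 6) in NEO and 13995 ± 7200 CPM (SD, n = 6) in SENS, a ratio of 1.49 and a difference of 4607 CPM, smaller than the SENS SD. Leaving out SENS 1 gave a ratio of 1.25, and leaving out SENS 6 gave 1.37. Each of the other 10 libraries, left out in turn, gave a ratio between 1.42 and 1.72, with the highest when NEO 3 was left out. Without both SENS 1 and SENS 6, a choice made after seeing the data, SENS stood at 9694 ± 2634 CPM (SD, n = 4), a ratio of 1.03 and a difference of 307 CPM. In SENS 1 Prm2 made up 29.6% of the reads of the 7 families, and without it the sum in that library was still 17925 CPM. In SENS 6 Catsperg1 made up 28.8%, and the sum without it was 14044 CPM.

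**Figure D4:**
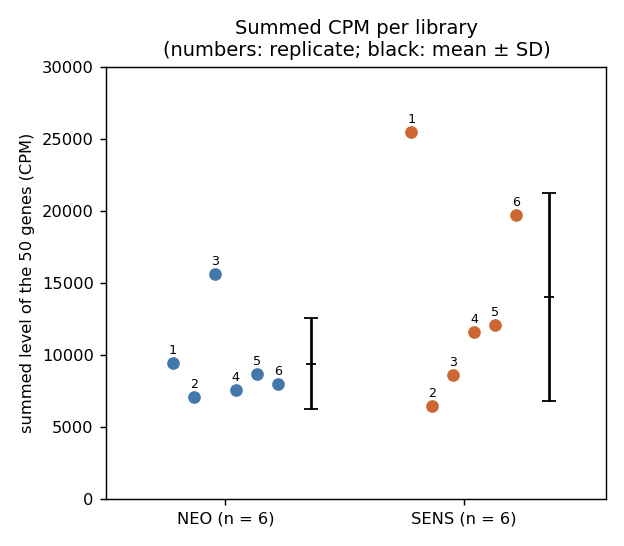
Summed level of the 50 genes in CPM (vertical axis, from 0) in each of the 6 NEO and 6 SENS libraries, with replicate numbers on the points and the mean ± SD in black beside each group. SENS 1 (25466 CPM) and SENS 6 (19728 CPM) lie above every other library, and the other 4 SENS libraries lie between 6479 and 12084 CPM, within the NEO range of 7092 to 15592 CPM or just under it.

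The libraries carry numbers in the labels that fall into 3 ranges, whose meaning is not given. In the lowest range, 1 NEO and 1 SENS library were at 9462 and 25466 CPM, the latter being SENS 1. In the middle range the means were 10077 ± 4782 CPM (SD, n = 3) in NEO and 8898 ± 2568 CPM (SD, n = 3) in SENS, so that SENS was lower by less than either SD. In the highest range they were 8317 ± 533 CPM (SD, n = 2) and 15906 ± 5405 CPM (SD, n = 2), with SENS 6 among the latter. The direction of the mean summed level thus did not hold within the middle range, the only range with 3 libraries a group. NEO 3 (15592 CPM) weighed on that mean, as NEO 2 and NEO 4 were at 7092 and 7546 CPM. By medians SENS was higher there, at 8622 CPM where NEO was at 7546 CPM.

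The count of genes higher in SENS was lower without SENS 1 and higher without SENS 6. Without SENS 1, 40 genes kept any read and 24 of them (60%) were higher in SENS, where the share over all genes tested was 55.9%. The median log2 fold change was then 0.73, with 0.32 over all genes tested. Without SENS 6, 41 of 49 were higher (83.7%, with 60.4% over all genes) and the medians were 1.37 and 0.55. Without both, 25 of 39 were higher (64.1%, with 57.9% over all genes) and the medians were 1.02 and 0.54. The other single libraries left between 34 and 39 genes higher. Among families, the Tex genes had 16 of 22 higher with all libraries and 10 of 18 without SENS 1. The Spata genes had 9 of 12 and then 7 of 10, and the Catsper genes had 4 of 4 and then 3 of 3. That Catsper count includes Catspere1, at 0.01 and with a lower mean CPM in SENS. The Tssk genes had 3 of 4 and then 2 of 4, and the Odf genes 3 of 4 and then 2 of 3. The Prm genes had 2 of 2 and then 0 of 1, and Spag6 was lower in both. Over all genes tested the shares were 57.0% and then 55.9%.

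**Figure D5:**
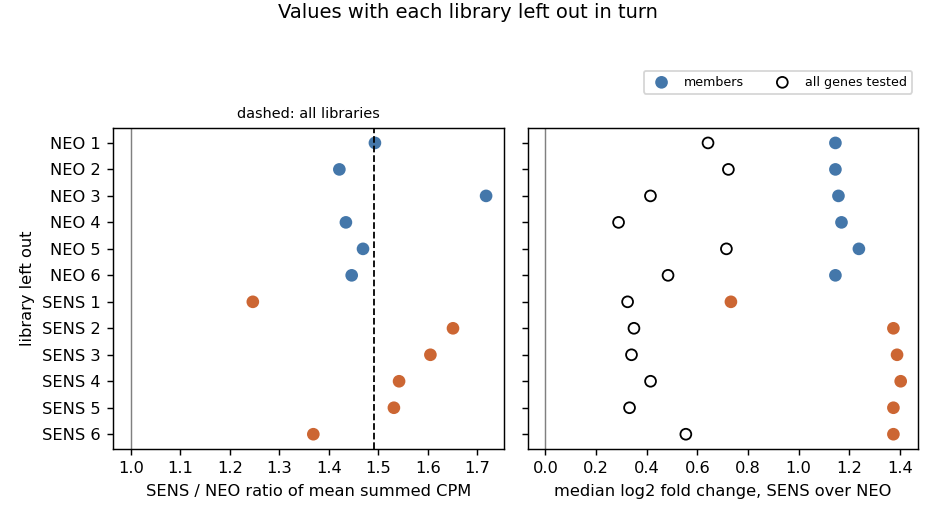
Left: ratio of the mean summed CPM of the 50 genes, SENS over NEO, with each library (vertical axis) left out in turn, and the value with all 12 libraries as a dashed line (1.49). Right: median log2 fold change over the members (filled, blue where a NEO and orange where a SENS library is left out) and over all genes tested (open); leaving out SENS 1 gives the lowest ratio (1.25) and the lowest median of the members (0.73).

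Other genes of sperm formation, outside the 7 families, were read from a list of 111 genes, of which 66 were in the table. SENS 1 was above 0 for 52 of the 66, and the other 11 libraries for between 7 and 15. The summed level of this list was 42811 CPM in SENS 1 and between 2662 and 8825 CPM elsewhere. Of the 66 genes, 31 were seen in SENS 1 only, where the background was 5.97% of genes. Tnp1 and Tnp2, the transition proteins that precede protamines on sperm DNA, had 59 of 60 and 35 of 35 reads in SENS 1. Ldhc, the lactate dehydrogenase of germ cells, had 33 of 33 there. The 2 genes with the most reads, Gsg1 and Dcst2, were spread over 11 libraries each, with 128 and 81 reads. Of the 61 tested, 55 (90.2%) were higher in SENS and the median log2 fold change was 1.41, with 57.0% and 0.39 over all genes. Without SENS 1 it was 17 of 30 (56.7%) and 0.48, close in share to the 55.9% over all genes, whose median was 0.32. None had a limma adjusted p under 0.05, against a background of 0%, and 1 had an unadjusted limma p under 0.05, higher in SENS (background 1.83%). NEO 2, the only other library with Prm2, also held 1 read of Tnp1.

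Genes of meiosis and the early germ line (21 of 45 listed were in the table) did not set SENS 1 apart in the number above 0. It was above 0 for 11 of them, and the other libraries for between 3 and 14. Of the 21, 2 were seen in SENS 1 only (Sycp1 with 2 reads and Hormad1 with 1), where the background was 5.97%. No other library was the only one to hold a gene of this list. Their summed level was 4422 ± 1472 CPM (SD, n = 6) in NEO and 4500 ± 2175 CPM (SD, n = 6) in SENS. Meioc, with 85 reads, and Piwil4, with 71.2, had the most reads of this list, and SENS 1 held 1 and 0 of them. Genes of the somatic cells of the testis (9 of 17 listed) were above 0 for 5 genes in SENS 1 and for between 2 and 7 in the other libraries. Lhcgr, the receptor for luteinizing hormone, and Dhh, a signal from Sertoli cells, had the most reads of that list, 104 and 103, of which SENS 1 held 1 and 6. In SENS 1 lay the only read of Gata4 and 3 of the 15 reads of Wt1, both transcription factors of Sertoli cells among other tissues. Wt1 had more reads, 6, in SENS 4. For the rest of that list, SENS 1 held 0 of the 34 reads of Amh and 0.5 of the 3.25 reads of Hsd3b6. It held no read of Insl3, Hsd17b3 or Cyp17a1. Of 53 genes of motile cilia and ependymal cells the table held only Gmnc, with 1 NEO and 19 SENS reads and 0 in SENS 1 and SENS 6, so ependymal cells could not be followed. In such bulk pull-downs, fewer cells of a type and less RNA per cell cannot be told apart. The part that these other genes, depth or the single libraries play in the values of the 7 families was not tested.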

How the data were processed

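The authors deposited 1 table of CPM values with 5764 genes and 12 library columns, 6 per group, all used here. Per the submitters' processing notes, the tools included FastQC, HISAT2, featureCounts and edgeR, and the builds listed are GRCm38 and mm10, with no tool versions stated. How genes were filtered, whether strand was used and how multiply mapped reads were handled is not given in the sources used here, and antisense or overlapping genes can share reads.

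Each deposited CPM column summed to nearly the same total, so values are relative to the reads in this table, and the full depth of the libraries is unknown. The most frequent value above 0 in a column was taken as 1 read. On that scale 81.2% of values were whole reads (tolerance 0.005), too few for a count model. SENS and NEO were compared with limma 3.58.1 (R 4.3.3, variance trend, two-sided, no covariate) on log2(CPM + 1) for the 5141 genes whose mean was 1 CPM or more, with Benjamini-Hochberg adjustment over all of them and a threshold of 0.05. An exact two-sided permutation test of mean CPM used all 924 regroupings. Expected detection at 6000 reads per library was computed without replacement. The fit was tested on simulated data. RefSeq (GRCm38.p6) matched all 50 members by symbol and gave their coordinates.

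The members, the 5 other gene lists and the tests were chosen with earlier results of these data known. Named members were the 2 with the most reads per family, the 5 per direction with the smallest unadjusted p, all protamine, Tssk and Catsper genes with reads, Tssk3, Spata48 and Tex47, and genes with 0 reads in 1 group and at least 5 in the other. From each other list the 2 genes with the most reads were named. Members named after their values were seen were Spata3, Spata22, Spata31d1d, Spata45, Tex12, Tex50, Tex101, Tex19.1 and Tex19.2, and the genes listed by name in a count. Genes of the other lists named after their values were seen were Tnp1, Tnp2, Ldhc, Sycp1, Hormad1, Gata4, Wt1, Amh, Hsd3b6, Insl3, Hsd17b3 and Cyp17a1. Alternatives were other pseudocounts (0.1, 10 and 100), filters and scalings, blocks, each library left out and, added after seeing the data, SENS 1 and SENS 6 left out together. No library pair had the same values within sampling noise.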

Additional observations from a re-analysis of the deposited data

Results flagged for a closer look

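Dixon's test for 1 sample far from the others was applied to 70 groups of 6 libraries and marked 24. Chance marks about 1 in 20 where values are normal and independent. These were low counts with many zeros, and the groups shared the same libraries. That rate therefore need not hold here, and the 24 are not read as an excess. In 11 of the 24 the other 5 libraries of the group were at 0, for which the test is always met.

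SENS 1 stood apart from the other SENS libraries in the number of the 50 genes above 0 (36), in that number at equal reads (32.9), and in genes of the 7 families seen in no other library (9). It also stood apart in other sperm genes above 0 (52) and in their summed level (42811 CPM). Single genes that marked SENS 1 were Prm2 (7541 CPM), Odf1 (696 CPM), Odf3l1 and Spata20 (both 580 CPM), Tssk2 (464 CPM), and Catsper1 and Prm3 (both 348 CPM). SENS 6 was marked by Catsperg1 (5683 CPM) and Tex47 (1639 CPM). SENS 4 was marked by Spag6 (3073 CPM) and Spata16 (1211 CPM), SENS 5 by Odf3 (415 CPM) and SENS 3 by Tssk1 (150 CPM).

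In NEO, replicate 3 was marked by the summed level of the 50 genes (15592 CPM) and by Spata25 (140 CPM). NEO 5 was marked by Catsperg2 (942 CPM), Tex21 (725 CPM) and Odf3l1 (145 CPM), and NEO 2 by Prm2 (180 CPM).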

How the results depend on the processing

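No gene of the table and no member was called with limma under any of the 22 alternatives, nor with the exact permutation test. The median log2 fold change of the members stayed above 0, between 0.22 (pseudocount 100) and 1.75 (mean of at least 100 CPM). The SENS minus NEO difference in summed level ranged from 307 to 6111 CPM. With 1 library left out, that in genes above 0 lay between 2.5 (without SENS 1) and 6.1 (without SENS 6). Counting only genes with at least 2 reads in a library, the difference was 6.33 with all libraries. Without SENS 1 it was 4.63, more than either SD, from 12.2 ± 2.40 (SD, n = 6) in NEO and 16.8 ± 2.05 (SD, n = 5) in SENS. This count was not taken at equal reads. Genes higher in SENS numbered 19 of 25 with a mean of at least 100 CPM, since fewer genes were tested, and 24 to 41 with 1 library left out, the lowest without SENS 1.

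Of the named genes' values, 572 kept their direction and 25 reversed. Many of the 572 could not reverse, so the tally is no measure of stability. Filters, the variance trend and the blocks leave a log2 fold change as it is. A gene at 0 throughout a group keeps its sign with any pseudocount or library left out, as long as it keeps a read. Catspere1 (0.0055 with all libraries) was -0.013 with pseudocount 100 and -56.1 CPM as a difference of means, and lay between -0.28 (without NEO 3) and 0.27 (without NEO 6) with 1 library left out, below 0 also without NEO 2, SENS 2, SENS 3 or SENS 4. Odf4 (-0.15) ranged from -1.49 (without NEO 2) to 1.16 (without SENS 6), above 0 also without NEO 1, 3, 4 or 5, and was 1.17 without SENS 1 and 6 and 25.8 CPM as a difference of means. Prm2 (0.90) ranged from -1.25 (without SENS 1) to 2.15 (without NEO 2), and was -1.25 without SENS 1 and 6. Spag6 (-0.62) ranged from -1.29 (without NEO 2) to 0.071 (without SENS 6). Tssk2 (0.18) ranged from -1.08 (without SENS 1) to 1.14 (without NEO 5), below 0 also without NEO 1, 2, 4 or 6 or without SENS 4, and was -0.75 without SENS 1 and 6. Tssk4 (2.01) was -120 CPM as a difference of means. Beyond the libraries and scales named, the cause was not tested.

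The replicate numbers did not pair the libraries: deviations of same-numbered libraries correlated between -0.03 and 0.08, and 1 of 6 matched best its own number. With the replicate block, 0 genes were called. The 37 members higher and the median of 1.17 were as without it, but could not differ. Each replicate number has a single library in each group, so the block changes the error and not the log2 fold change. The same holds for the block for the number range, whose ranges have equal numbers of NEO and SENS libraries. Depth limits these values: the median gene of the 7 families had 13.5 reads over 12 libraries, and a value of 0 allows a level of up to 164 to 435 CPM in a library.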
